A study of Mus musculus with 8 samples.

Results

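The 45 genes described here encode SR proteins, hnRNPs, splice site and snRNP factors, and the kinases that phosphorylate SR proteins. They were taken by symbol from a list of splicing genes, and every listed symbol was found among the 21080 gene symbols of the deposited tables. All 45 were also among the 16284 genes that passed a filter on low values and were tested. By role they comprised 12 SR proteins, 19 hnRNPs, 8 splice site and snRNP factors and 6 kinases. The RNA came from bone marrow-derived macrophages (BMDMs), which were differentiated in culture from marrow cells of C57BL/6 mice. In Nudt21-cKO mice both alleles of Nudt21 were floxed (Nudt21 fl/fl) and Cre was driven from the LysM locus, which directs deletion to myeloid cells. WT mice were sex-matched littermates that also carried LysM-Cre, so Cre was shared by all groups. The groups were WT and cKO at 0 h and WT and cKO at 4 h, where cells were primed with IFNγ overnight and then given LPS for 4 h. There were 2 samples for each of the 4 groups, and the cells of 2 mice were pooled for a sample. The 0 h samples also have the stimulation in their labels and were taken as unstimulated from their titles. The age of the mice used for these samples is not given in the sources used here.

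SR proteins bind exonic sequences through RNA recognition motifs and help to recruit the spliceosome through domains rich in arginine and serine. hnRNPs coat nascent RNA, and many of them repress exons or regulate RNA export and stability. U2AF and SF1 recognise the 3′ splice site and the branch point, and the SF3 complexes and PRPF8 belong to the spliceosomal snRNPs. CLK and SRPK kinases phosphorylate SR proteins and set where they reside and how active they are. Many of these genes control their own RNA level through exons that send the transcript to decay. Nudt21 encodes the CFIm25 subunit of cleavage factor I, which binds UGUA in RNA upstream of polyadenylation sites.

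The deposited value of a gene was taken to be its read coverage averaged over its bases, as its unit is not named. Summed over genes it came to between 14950300 and 17954900 per sample, and the median coverage of the genes tested was 149 to 166 at 0 h and 49.8 to 70.4 at 4 h. Samples were therefore centred on their median gene, and "scaled coverage" below means coverage after this centring, on the mean scale of the 8 samples. Before centring, the log2 median of a sample was higher in cKO than in WT by 0.36 at 4 h and by 0.09 at 0 h, and the difference of 4 h minus 0 h was -1.47 in WT and -1.20 in cKO. These are the shifts that centring removed from every gene. Nudt21, as a check of the labels, had a scaled coverage of 465 and 419 in WT against 100.2 and 101 in cKO at 0 h. At 4 h it was 1068 and 953 in WT against 197 and 164 in cKO, so that no cKO sample reached a WT sample. All 8 macrophage markers were present, with a summed coverage of 64100 to 133000. Of these 0 were called higher and 2 lower in cKO at 0 h, and 1 higher and 3 lower at 4 h. Among all genes tested 2.79% were called higher and 2.17% lower at 0 h, and 7.2% and 8.71% at 4 h. The median log2 fold changes of the macrophage markers were -0.29 at 0 h and -0.44 at 4 h. The 5 neutrophil markers summed to 14900 to 28200, carried by S100a8 and S100a9, while Ly6g lay between 0 and 7.37. None of the neutrophil markers was called between genotypes (0 of 5 at 0 h and 0 of 5 at 4 h by limma), and markers of B and T cells summed to at most 4.36. Of 3 dendritic cell markers 1 was called lower in cKO at 4 h, Xcr1, with a deposited coverage of 17.5 and 52.4 in WT against 4.64 and 2.32 in cKO. The 3 fibroblast markers summed to between 8.09 and 114, with median log2 fold changes of 0.98 at 0 h and 0.88 at 4 h, and 0 of them were called at either time. The 3 mast cell or basophil markers summed to between 1.93 and 9.73 and the 3 red cell markers to between 1.26 and 10.9. Of each list 2 markers were tested and 0 called, with median log2 fold changes at 0 h and 4 h of -1.80 and -2.04 for mast cell or basophil markers and of -1.18 and -0.98 for red cell markers. The part of these cells in the values below was not tested. In bulk RNA, fewer cells of a type and less RNA per cell cannot be told apart.

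Since the deleted protein reads UGUA, the 3′ ends of the members were examined for TGTA in the DNA sense strand. For each gene the end is that of the RefSeq-matched transcript with the longest 3′UTR inside the RefSeq gene, and other annotated transcripts can end elsewhere. Of the 43 members with an annotated 3′UTR of at least 100 bases, 33 (76.7%) held TGTA within the last 100 bases, as did 55.5% of 11420 tested protein-coding genes. The polyadenylation signal AATAAA was present in the last 50 bases of 76.7% of these members and of 67.1% of those genes. The windows of 30 bases shown here come from the 10 members that were called between genotypes at 4 h (below) and hold the motif there, and from Ptbp3 and Hnrnpf, for comparison with Ptbp1 and Hnrnph1. They are read 5′ to 3′ on the gene's strand from GENCODE M21 transcripts on GRCm38, with the TGTA nearest to that end in capitals.

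Hnrnpr (chr4:136340627-136340656, plus strand): aatttcttgttcaTGTAagatttcaataaa

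Ptbp1 (chr10:79864377-79864406, plus strand): cttcattctgagcTGTAggccaggctgggc

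Ptbp3 (chr4:59471868-59471897, minus strand): ataaatgtcatggcatcTGTActctcttaa

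Hnrnpa1 (chr15:103244914-103244943, plus strand): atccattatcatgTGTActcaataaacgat

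Hnrnpa3 (chr2:75669334-75669363, plus strand): aattgttttcattTGTAgcataatgaaatg

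Hnrnpab (chr11:51600137-51600166, minus strand): acaaccactttggTGTAtagtcatttctag

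Hnrnph1 (chr11:50386466-50386495, plus strand): atttctttttaggTGTAttgcgctaagtga

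Hnrnpf (chr6:117925532-117925561, plus strand): atttccttttgggTGTAttttgctaagtga

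Hnrnpk (chr13:58391153-58391182, minus strand): gaagtgttcctctTGTAaggaaatacagta

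Sf3a1 (chr11:4182507-4182536, plus strand): tttatatgtattaTGTAtaaattactttgg

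Clk1 (chr1:58412000-58412029, minus strand): tttggaataaaatttgtgcttatgaaTGTA

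Srsf10 (chr4:135869813-135869842, plus strand): agtaaaaggctttTGTAatccaggttttgt

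In Hnrnpr the motif lies 38 bases from the end of the transcript used and in Ptbp1 39 bases, whereas in Clk1 it forms the last bases of that transcript. The whole annotated gene goes on past the window for 18791 bases in Hnrnpr, 1811 in Clk1 and 1749 in Hnrnpa1. The windows of Hnrnph1 and Hnrnpf, which encode closely related proteins, are identical at 26 of 30 positions. Hnrnpa2b1, Hnrnpll and Hnrnpa0 had no TGTA in this window, which says only that the letters are not there. Among members called lower at 4 h (below), 8 of 10 with such a 3′UTR held the motif, against 23 of 31 of those not called and 2 of 2 of those called higher. The annotated 3′UTR of the called-lower members ranged from 197 to 4025 bases with a median of 874, and that of the members not called from 130 to 5015 bases with a median of 1082.

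The members were abundant RNAs in these macrophages. Averaged over the 8 samples they all lay at or above percentile 61.0 of the tested genes in scaled coverage, which is a level per base. Hnrnpk, a poly(C)-binding hnRNP, was the highest at 8798, followed by Hnrnpa2b1 at 8506, Hnrnpab at 5203 and the SF3b subunit Sf3b1 at 3829. The kinase Srpk2 was the lowest at 243 and Hnrnpr the next at 297. Together the 45 genes took 0.466% to 0.661% of the summed coverage of a sample, and hnRNPs made up 56.1% to 59.6% of that share in every sample.

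The comparison of cKO with WT asks what loss of Nudt21 does to the RNA of each member. At 0 h, Hnrnpr and Ptbp1 fell in cKO and 0 members rose (limma, Benjamini-Hochberg adjusted p under 0.05). Across all genes tested 2.17% were called lower and 2.79% higher. At an unadjusted p under 0.05, 7 members (15.6%) were lower and 4 (8.89%) higher at 0 h, beside 10.7% and 11.2% of genes tested. At 4 h, 11 members fell and 2 rose, where 8.71% of genes tested fell and 7.2% rose. That count depends on the scaling and on single samples, being 1 lower and 11 higher on the values as deposited, 0 and 0 in a fit of the 4 samples of that time, and 0 and 0 without cKO 4 h replicate 4. At an unadjusted p under 0.05, 22 members (48.9%) were lower and 4 (8.89%) higher at 4 h, beside 18.8% and 14.7% of genes tested. All members lay at or above percentile 61.0 of the genes tested in coverage, and shares among genes of like coverage were not counted. By role, 57.9% of the hnRNPs and 75.0% of the splice site and snRNP factors were lower at an unadjusted p under 0.05. So were 25.0% of the SR proteins and 33.3% of the kinases, all after median-centring. On the deposited values the median log2 fold changes at 4 h were -0.06 for hnRNPs and 0.07 for splice site and snRNP factors. They were 0.28 for SR proteins and 0.21 for kinases. The members that fell at 4 h were 8 hnRNPs (Hnrnpr, Hnrnph1, Hnrnpa2b1, Hnrnpa1, Hnrnpk, Hnrnpll, Hnrnpa3 and Ptbp1), the SF3 subunits Sf3b3 and Sf3a1, and the kinase Clk1. Srsf10 and Hnrnpab rose. The median log2 fold change of the 45 members was -0.03 at 0 h beside 0.00 for all genes tested, and -0.27 at 4 h beside -0.08, and the members' medians were 0.07 and 0.09 on the deposited scale.

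**Figure D1:**
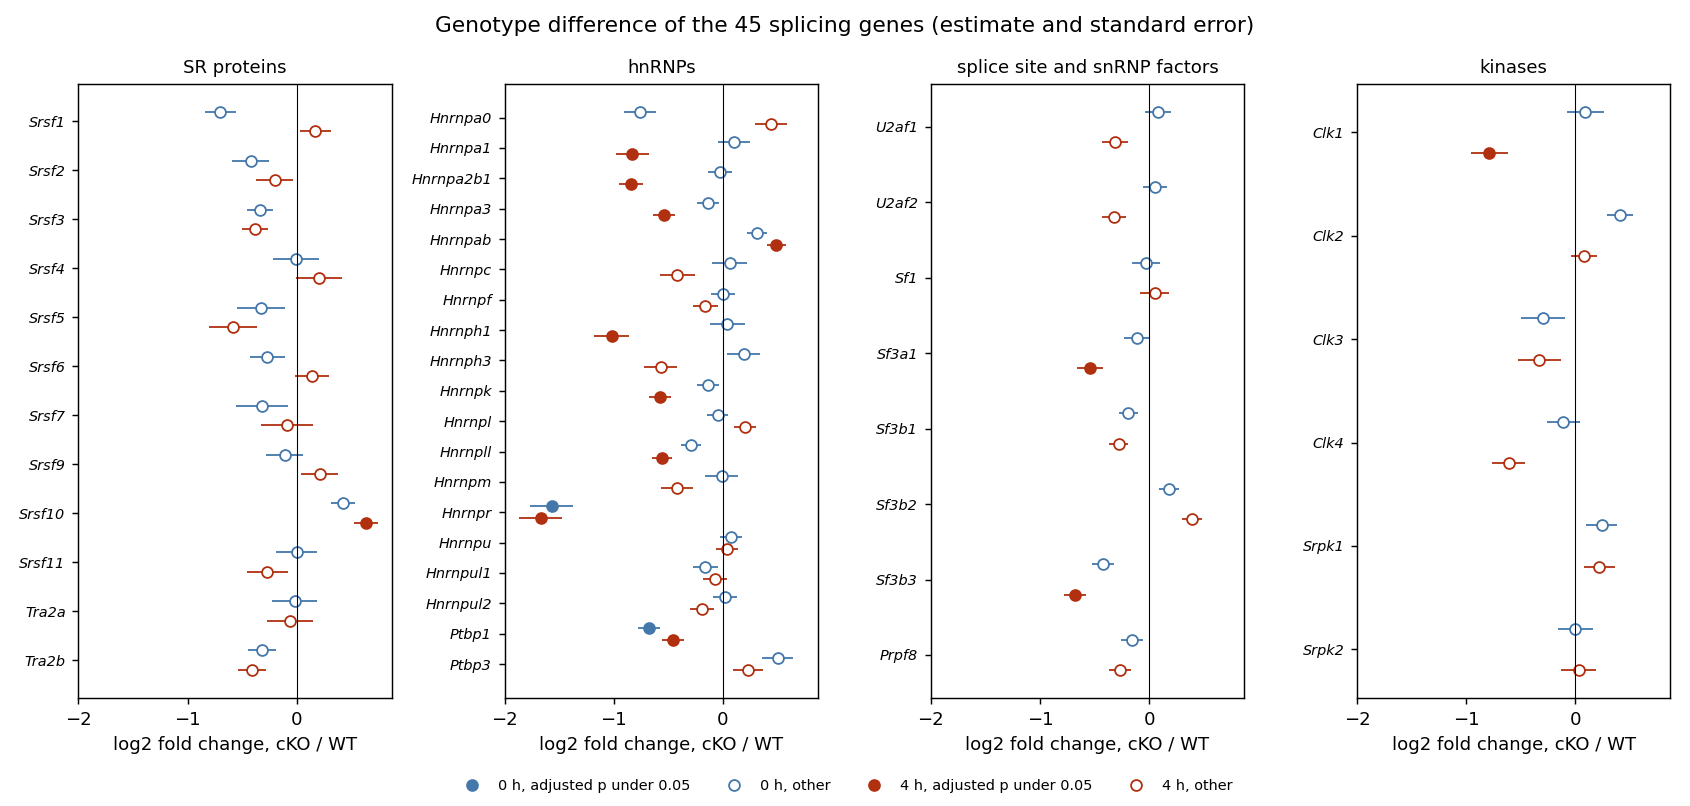
Log2 fold change of cKO over WT for each of the 45 members, by role, at 0 h (blue) and 4 h (red), with the standard error from limma on median-centred values. Filled points passed an adjusted p of 0.05, which 2 members did at 0 h and 13 at 4 h, and Hnrnpr lies farthest from 0 at both times.

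Of the 12 SR proteins, 0 were called between genotypes at 0 h (1 higher and 2 lower at an unadjusted p under 0.05, as were 11.2% and 10.7% of genes tested). At 4 h 1 was higher and 0 lower (1 and 3 unadjusted, 33.3% of the SR proteins beside 33.5% of genes tested). Srsf10, an atypical SR protein that represses splicing when it is dephosphorylated, was the member that rose. Its scaled coverage at 4 h was 736 and 638 in WT against 1089 and 1033 in cKO, a mean of 687 ± 69.2 against 1061 ± 39.2 (SD, n = 2 each). Neither WT sample reached a cKO sample, and the log2 fold change was 0.63 (SE 0.11, limma adjusted p = 0.0250). At 0 h its values were 534 and 515 in WT against 677 and 729 in cKO, with a log2 fold change of 0.42 that did not pass (limma adjusted p = 0.111).

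Srsf1, the founding SR protein, had a scaled coverage of 811 and 702 in WT against 497 and 435 in cKO at 0 h, and 672 and 582 in WT against 738 and 670 in cKO at 4 h. The cKO samples lay below WT at 0 h and overlapped with WT at 4 h, and neither difference passed (log2 fold changes of -0.70 and 0.17, limma adjusted p = 0.0652 and 0.459). Srsf3, which with Srsf7 is known for regulating RNA export and polyadenylation sites, had log2 fold changes of -0.34 and -0.38 at the 2 times (limma adjusted p = 0.197 and 0.104). Srsf5 had a WT spread of 3607 and 2356 at 0 h, the widest of the SR proteins in scaled coverage in that group, beside 2327 and 2320 in cKO. At 4 h it was 6148 and 5394 in WT against 3872 and 3850 in cKO, which did not overlap, and its log2 fold change of -0.58, the lowest of the SR proteins, did not pass (adjusted p = 0.138). The other SR proteins ranged from -0.42 (Srsf2) to 0.00 (Srsf11) at 0 h, and from -0.41 (Tra2b) to 0.21 (Srsf9) at 4 h.

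Hnrnpr, which binds RNA in the nucleus and in neuronal axons and is a close relative of Syncrip, was the member farthest from 0 at both times. Its scaled coverage at 0 h was 466 and 512 in WT against 162 and 167 in cKO. At 4 h it was 346 and 466 in WT against 143 and 111 in cKO, and at both times the cKO samples were below both WT samples. The means were 489 ± 32.8 and 164 ± 3.82 (SD, n = 2 each) at 0 h, and 406 ± 84.9 and 127 ± 22.2 at 4 h. The cKO level was 0.336 times that of WT at 0 h (log2 fold change -1.57, SE 0.20, limma adjusted p = 0.0217) and 0.314 times at 4 h (log2 fold change -1.67, SE 0.20, adjusted p = 0.0116). Syncrip, which is not a member, had values of 884 and 914 in WT against 1639 and 1705 in cKO at 0 h, a log2 fold change of 0.90 (SE 0.09, limma adjusted p = 0.0139). At 4 h Syncrip was 2856 and 2625 in WT against 2792 and 2876 in cKO, and the genotypes overlapped. On the deposited scale Hnrnpr had a coverage of 720 and 783 in WT against 255 and 285 in cKO at 0 h.

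Ptbp1, the polypyrimidine tract-binding protein that represses exons in most non-neuronal cells, was lower in cKO at both times, with the 4 h call depending on the scaling. At 0 h its scaled coverage was 2402 and 2571 in WT against 1538 and 1558 in cKO (log2 fold change -0.68, SE 0.10, limma adjusted p = 0.0336). At 4 h it was 6440 and 5698 in WT against 4325 and 4489 in cKO (log2 fold change -0.46, SE 0.10, adjusted p = 0.0435), but on the deposited values the 4 h difference was -0.10 (adjusted p = 0.516). It was called at 4 h under 2 of 5 scalings and in 1 of 8 fits with a sample left out. The samples of the genotypes did not overlap in scaled coverage at either time.

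Ptbp3, its paralog in blood cells, had values on the other side. They were 1455 and 1777 in WT against 2298 and 2243 in cKO at 0 h, and 5046 and 4363 in WT against 5446 and 5560 in cKO at 4 h, with log2 fold changes of 0.50 and 0.23 that did not pass (limma adjusted p = 0.121 and 0.310). The ratio of Ptbp3 to Ptbp1 coverage within a sample needs no scaling between samples. At 0 h it was 0.606 and 0.691 in WT against 1.49 and 1.44 in cKO. At 4 h it was 0.784 and 0.766 in WT against 1.26 and 1.24 in cKO. Ptbp1 thus had the higher coverage per base of the pair in all 4 WT samples and Ptbp3 in all 4 cKO samples. This ratio and the next were chosen after the values were seen, and with 2 samples against 2 the smallest 2-sided p of an exact permutation test is 0.333, so no test was made of them.

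**Figure D2:**
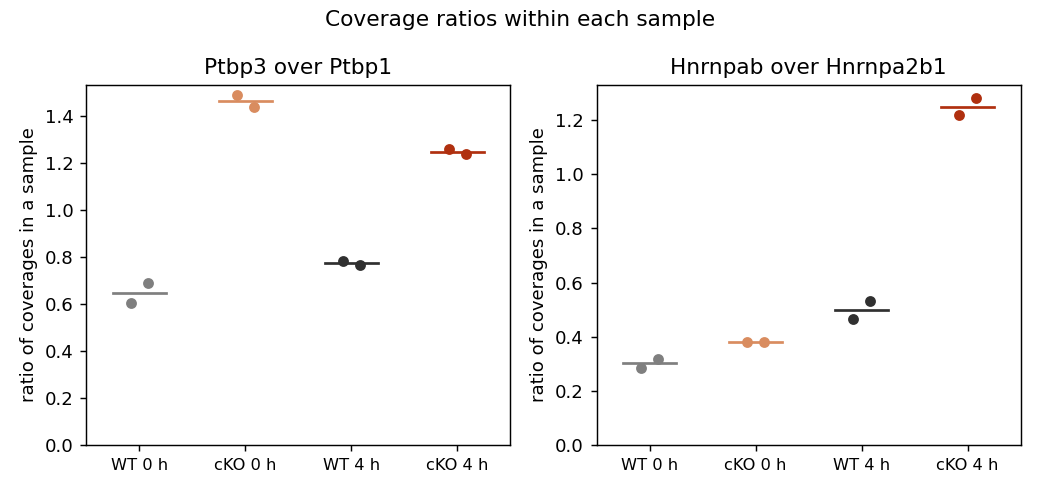
Ratio of the coverages of Ptbp3 and Ptbp1 (left) and of Hnrnpab and Hnrnpa2b1 (right) in each sample, with points for the 2 samples of a group and a line for their mean, on axes that start at 0. The Ptbp3 ratio is under 1 in every WT sample and above 1 in every cKO sample, and the Hnrnpab ratio is above 1 in the cKO samples at 4 h.

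Among the A/B hnRNPs, RNA binders that repress many exons, Hnrnpa1, Hnrnpa2b1 and Hnrnpa3 fell at 4 h and Hnrnpab rose. Hnrnpa1 had a scaled coverage of 4829 and 4841 in WT against 2831 and 2621 in cKO at 4 h, 0.563 times the WT level (log2 fold change -0.83, SE 0.15, limma adjusted p = 0.0258). At 0 h it was 868 and 693 in WT against 778 and 894 in cKO, so that the genotypes overlapped. Hnrnpa2b1 had values of 14560 and 13330 in WT against 7999 and 7581 in cKO at 4 h (log2 fold change -0.84, SE 0.11, adjusted p = 0.0150). At 0 h its values were 6620 and 5802 in WT against 5855 and 6300 in cKO, again overlapping. Hnrnpa3 was 1727 and 1564 in WT against 1170 and 1097 in cKO at 4 h (log2 fold change -0.54, SE 0.10, adjusted p = 0.0275).

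Hnrnpab, a CArG-box and RNA-binding relative of AUF1, had a scaled coverage of 6751 and 7089 in WT against 9759 and 9668 in cKO at 4 h. Both cKO samples were above WT, by a log2 fold change of 0.49 (SE 0.09, limma adjusted p = 0.0270). At 0 h it was 1886 and 1847 in WT against 2221 and 2400 in cKO (0.31, adjusted p = 0.133). The within-sample ratio of Hnrnpab to Hnrnpa2b1 was 0.285 and 0.318 in WT against 0.379 and 0.381 in cKO at 0 h. At 4 h it was 0.464 and 0.532 in WT against 1.22 and 1.28 in cKO, the 2 samples of the 8 in which Hnrnpab had the higher coverage per base.

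Hnrnpa0, which is known for binding the AU-rich elements of inflammatory transcripts in macrophages, was on different sides at the 2 times. It had values of 1196 and 1045 in WT against 673 and 647 in cKO at 0 h, and 1719 and 1365 in WT against 1967 and 2203 in cKO at 4 h. The groups did not overlap at either time, and neither difference passed after median-centring (log2 fold changes of -0.76 and 0.44, limma adjusted p = 0.0642 and 0.118). Of the 5 scalings described below, 4 called Hnrnpa0 lower in cKO at 0 h and 3 called it higher at 4 h. The difference between the 2 genotype effects was 1.20 on the log2 scale (SE 0.22, adjusted p = 0.0696).

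Of the G-run binding hnRNPs, Hnrnph1 fell at 4 h, from 3873 and 3474 in WT to 1711 and 1915 in cKO, while at 0 h WT (2453 and 1952) and cKO (2091 and 2405) overlapped. Its log2 fold change at 4 h was -1.02 (SE 0.16, limma adjusted p = 0.0203). Hnrnph3 was 904 and 753 in WT against 548 and 562 in cKO at 4 h, a log2 fold change of -0.57 that did not pass (adjusted p = 0.0606). Hnrnpf, whose 3′ window resembles that of Hnrnph1, was 5140 and 4506 in WT against 4228 and 4407 in cKO at 4 h (-0.16, adjusted p = 0.364).

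Hnrnpk fell at 4 h, with a scaled coverage of 16110 and 14340 in WT against 10150 and 10160 in cKO (log2 fold change -0.58, SE 0.10, limma adjusted p = 0.0231). Hnrnpll, which directs Ptprc (CD45) splicing in lymphocytes, was 752 and 732 in WT against 518 and 487 in cKO at 4 h (-0.56, SE 0.09, adjusted p = 0.0214). For both genes the cKO samples were also below WT at 0 h, by -0.14 and -0.29, without passing (adjusted p = 0.496 and 0.150). Hnrnpl, the paralog of Hnrnpll, was 2283 and 2175 in WT against 2524 and 2610 in cKO at 4 h (0.20, adjusted p = 0.248). The remaining hnRNPs, Hnrnpc, Hnrnpm, Hnrnpu, Hnrnpul1 and Hnrnpul2, had log2 fold changes from -0.16 to 0.07 at 0 h and from -0.42 to 0.04 at 4 h and none passed. Over the 19 hnRNPs the median log2 fold change was -0.01 at 0 h and -0.42 at 4 h, and on the deposited scale it was 0.09 and -0.06.

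**Figure D3:**
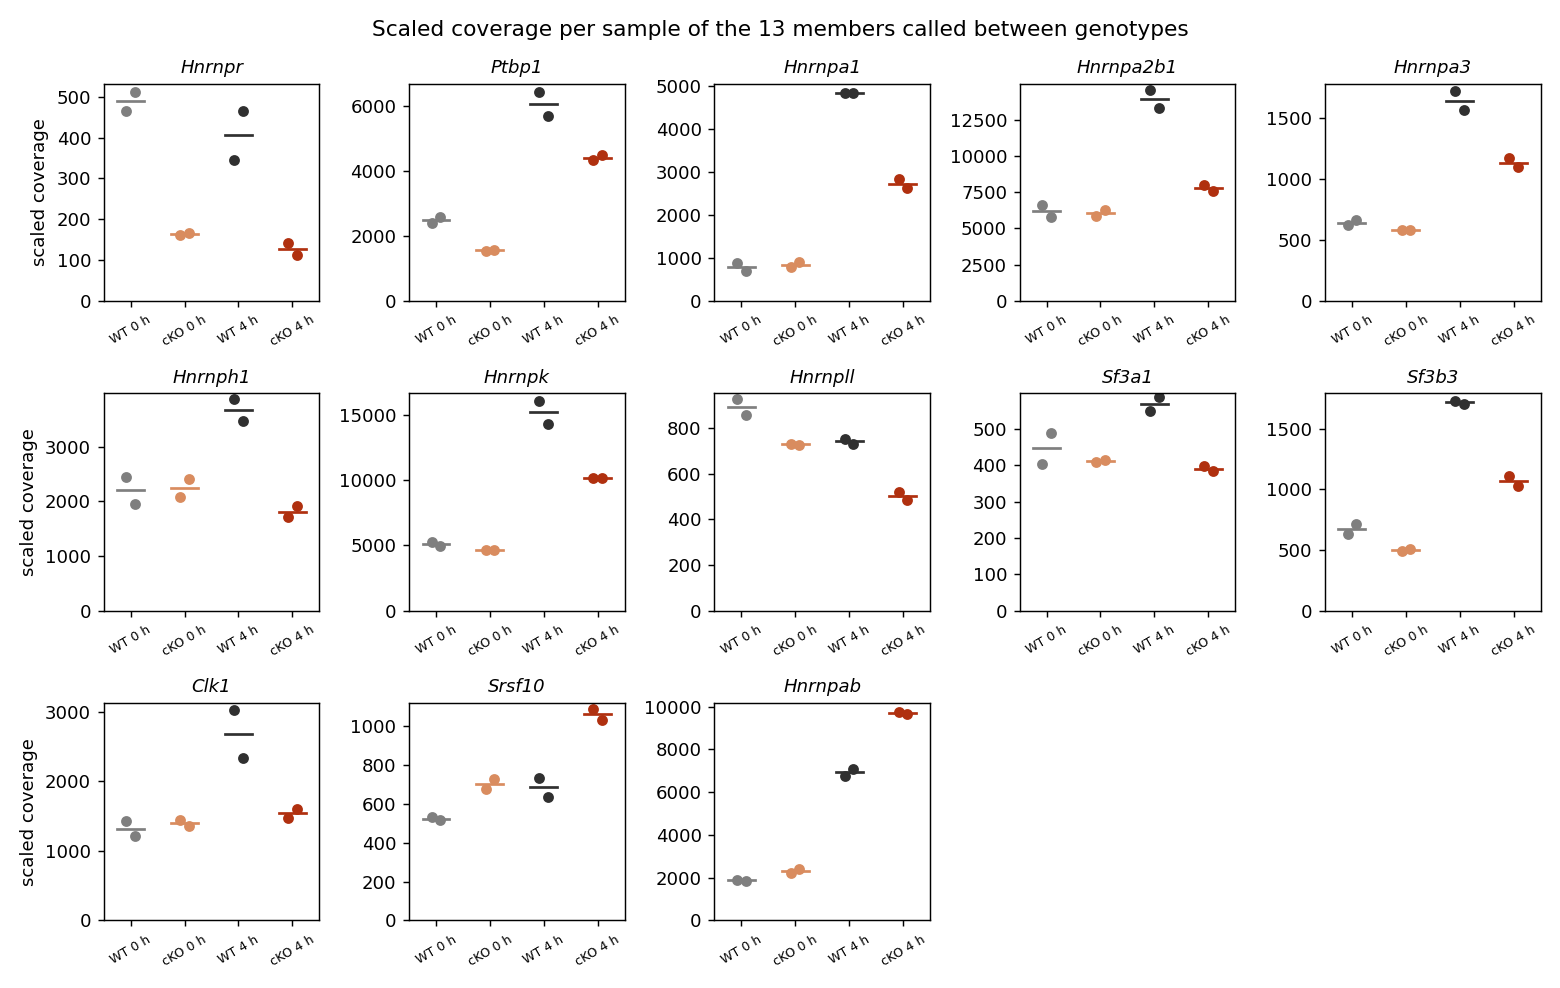
Scaled coverage (per base, median-centred, linear axes that start at 0) of the 13 members called between genotypes, with points for the 2 samples of a group and a line for their mean. Hnrnpr and Ptbp1 are lower in cKO at both times, Srsf10 and Hnrnpab are higher in cKO at 4 h, and in Hnrnpa1, Hnrnpa2b1, Hnrnph1 and Clk1 the genotypes overlap at 0 h and are apart at 4 h.

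Of the 8 splice site and snRNP factors, 0 were called at 0 h (0 higher and 1 lower at an unadjusted p under 0.05, beside 11.2% and 10.7% of genes tested), and Sf3b3 and Sf3a1 fell at 4 h. Sf3b3, a scaffold subunit of SF3b, had a scaled coverage of 1728 and 1707 in WT against 1109 and 1030 in cKO at 4 h (log2 fold change -0.68, SE 0.10, limma adjusted p = 0.0181). At 0 h it was 633 and 714 in WT against 492 and 511 in cKO (-0.42, adjusted p = 0.0929). Sf3a1, a subunit of SF3a in the U2 snRNP, was 551 and 588 in WT against 398 and 385 in cKO at 4 h (-0.54, SE 0.12, adjusted p = 0.0440). Sf3b2, another SF3b subunit, had values on the other side at 4 h, 1418 and 1438 in WT against 1816 and 1931 in cKO, and did not pass (0.39, adjusted p = 0.0532). Sf3b1, the SF3b subunit at the branch point, was 6043 and 5397 in WT against 4644 and 4774 in cKO (-0.28, adjusted p = 0.111). U2af1, U2af2, Sf1 and Prpf8 lay between -0.32 and 0.05 at 4 h.

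Of the 6 kinases, 0 were called at 0 h (1 higher and 0 lower at an unadjusted p under 0.05, beside the same shares of genes tested), and Clk1 fell at 4 h. Clk1 had a scaled coverage of 3032 and 2334 in WT against 1476 and 1606 in cKO at 4 h (log2 fold change -0.79, SE 0.17, limma adjusted p = 0.0391). The WT samples differed from each other by almost as much as the lower of them differed from cKO, and at 0 h WT (1424 and 1209) and cKO (1446 and 1352) overlapped. Clk4 was 842 and 686 in WT against 478 and 522 in cKO at 4 h (-0.61, adjusted p = 0.0525), and Clk2 and Clk3 lay at 0.08 and -0.33. The SRPK kinases Srpk1 and Srpk2 had log2 fold changes of 0.22 and 0.03.

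How samples are put on a common scale moved these counts. On the values as deposited, 0 members were higher and 3 lower at 0 h (3.42% and 1.66% of genes tested), and 11 were higher and 1 lower at 4 h (19.6% and 3.38%). In the 4 h comparison each of the 13 members called kept the sign of its difference under all 5 scalings tried, while the adjusted p of many did not stay under 0.05. Of all 45 members, 10 at 0 h and 12 at 4 h had genotype differences whose sign was not the same under the 5 scalings, and none of those was called after median-centring. Members called under all 5 scalings were 0 higher and 1 lower at 0 h (1.94% and 1.35% of genes tested), and 1 higher and 1 lower at 4 h (5.77% and 3.22%). These were Ptbp1 at 0 h, with a log2 fold change from -0.81 to -0.59, and Srsf10 (0.59 to 0.99) and Hnrnpr (-1.67 to -1.31) at 4 h. Hnrnpr at 0 h was called under 4 of the 5, with an adjusted p of 0.0502 when samples were set to equal summed coverage. Hnrnpa2b1, Hnrnph1, Clk1 and Hnrnpab were called under 4 at 4 h, Hnrnpk under 3, Hnrnpa1, Hnrnpa3, Hnrnpll, Sf3b3 and Ptbp1 under 2, and Sf3a1 under 1.

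**Figure D4:**
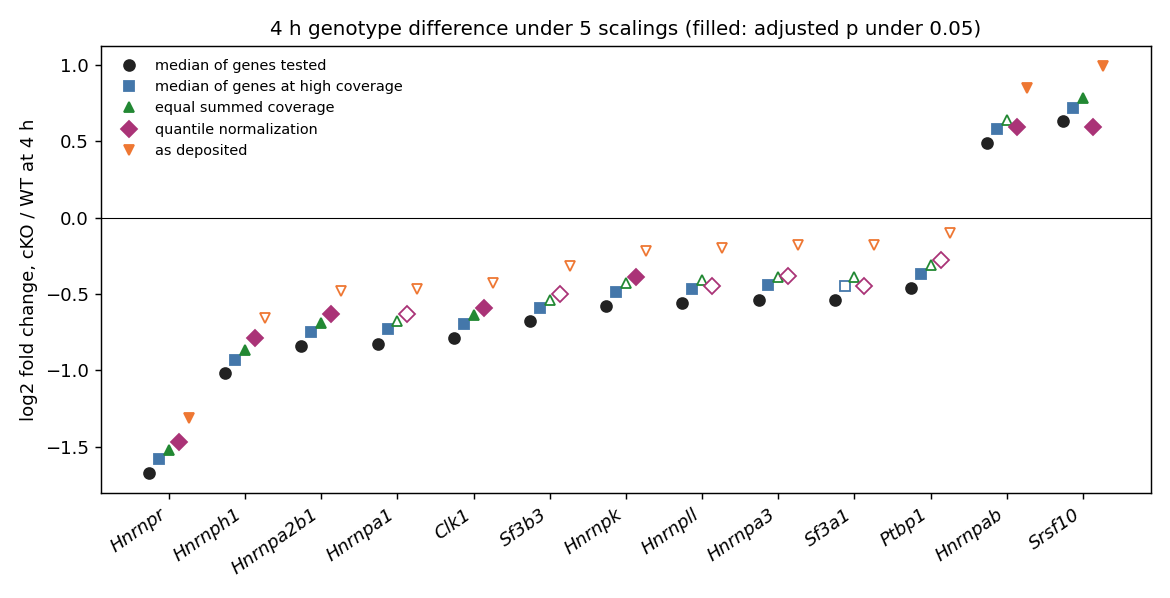
Log2 fold change of cKO over WT at 4 h for the 13 members called, under 5 ways of scaling the samples (symbols and colours), with filled symbols where limma's adjusted p was under 0.05. All symbols of a gene lie on the same side of 0, the deposited scale gives the highest value for each gene, and Hnrnpr and Srsf10 are filled under all 5.

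The 4 h calls also rested on few samples. The 11 members called lower became 10 without either WT 0 h sample, 2 without either cKO 0 h sample, 2 without WT 4 h replicate 1, 13 without WT 4 h replicate 2, 1 without cKO 4 h replicate 3 and 0 without cKO 4 h replicate 4. The 2 called higher became 1 with any single WT sample left out and 0 with any single cKO sample left out. At 0 h the 2 members called lower became 0 with any single 0 h sample left out and 1 without either cKO 4 h sample. Hnrnpr at 4 h stayed called in 7 of the 8 fits with a sample left out, with log2 fold changes from -1.89 to -1.46. Hnrnpa2b1 stayed called in 6, Srsf10 in 3, and Ptbp1, Clk1 and Hnrnpab at 4 h in 1. A fit of only the 4 samples of that time called 0 members at 4 h and 1 at 0 h, which was Hnrnpr.

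Stimulation moved most members relative to the median gene. Between 0 h and 4 h in WT, 31 members were called higher and 1 lower after median-centring, beside 37.3% and 22.9% of genes tested, and in cKO 31 were higher and 2 lower, beside 35.5% and 23.1%. These directions depended on the scale, since genes with high coverage stood above the median gene at 4 h, by a median log2 change of 0.92 in WT and 0.77 in cKO. When samples were centred on the 4507 genes whose mean coverage was 500 or more, 11 members were higher and 17 lower in WT (16.9% and 49.6% of genes tested) and 10 higher and 17 lower in cKO (16.9% and 48.7%). The sign of the change differed among the 5 scalings for 30 members in WT and 28 in cKO. Members called under all 5 scalings were 5 higher and 1 lower in WT (12.6% and 21.5% of genes tested) and 5 higher and 2 lower in cKO (13.9% and 21.8%).

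Tra2a, Hnrnpa1, Srsf3, Tra2b and Hnrnph3 rose in WT under all 5 scalings. Tra2a, a splicing activator that binds GAA-rich exons, had a scaled coverage of 494 and 395 in WT at 0 h and 3777 and 2802 at 4 h. Its log2 fold change was 2.88 after median-centring (SE 0.21, limma adjusted p = 0.000266) and 1.41 on the deposited scale. Tra2b, its paralog, went from 741 and 719 to 3860 and 3129 (2.25, SE 0.13, adjusted p = 0.000111), or 0.78 as deposited. Srsf3 went from 1118 and 937 to 5468 and 4892 (2.34, SE 0.12), or 0.87 as deposited. Hnrnpa1 had a log2 fold change of 2.64 (SE 0.15) and Hnrnph3 of 1.94 (SE 0.15), or 1.17 and 0.47 as deposited. For each of these genes the 4 h samples were above the 0 h samples.

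In cKO the members that rose under all 5 scalings were Tra2a (2.84), Srsf3 (2.30), Tra2b (2.15), Hnrnpab (2.07) and Hnrnpa0 (1.66), with values here after median-centring. Hnrnpa1 had a log2 fold change of 1.71 in cKO and was called under 3 scalings, and Hnrnph3 one of 1.18 and was called under 2. Hnrnpab in WT (1.89) was called under 4. Srpk2, an SR protein kinase, fell under all 5 scalings in both genotypes. Its scaled coverage went from 331 and 358 to 125 and 156 in WT (-1.30, SE 0.16, limma adjusted p = 0.00164) and from 363 and 329 to 156 and 129 in cKO (-1.28, SE 0.16, adjusted p = 0.00192). Hnrnpll fell under all 5 in cKO, from 730.0 and 727 to 518 and 487 (-0.54, SE 0.09, adjusted p = 0.00523). In WT its log2 fold change of -0.27 had an adjusted p of 0.0518.

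**Figure D5:**
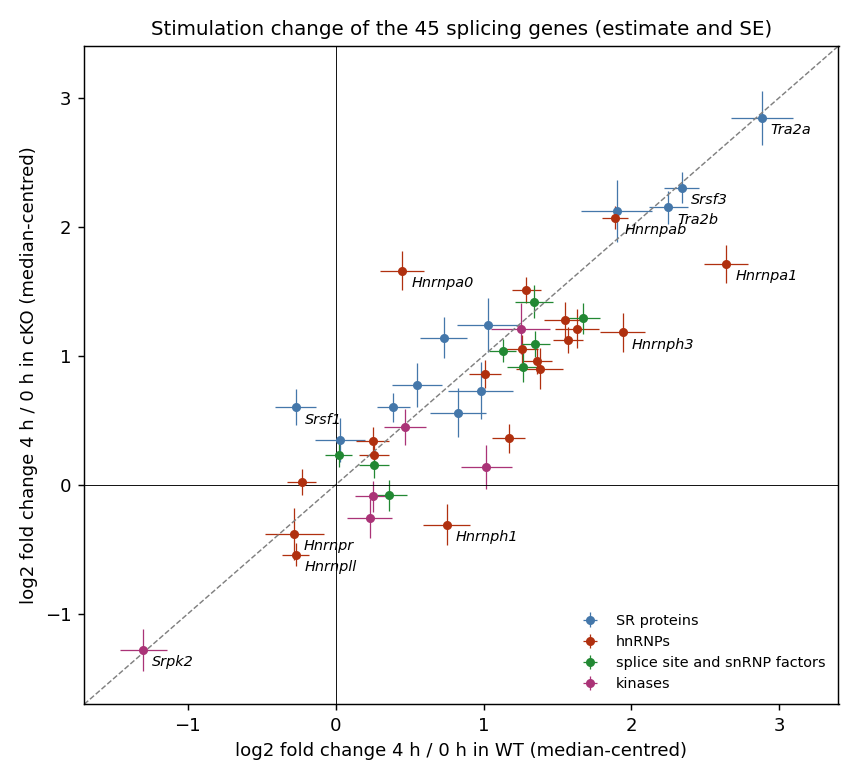
Log2 fold change from 0 h to 4 h in WT (x axis) and in cKO (y axis) for the 45 members after median-centring, with standard errors, coloured by role, and a dashed line of equal change. Most members lie near the line, with Hnrnpa0 and Srsf1 above it, Hnrnpa1, Hnrnph1, Clk1, Hnrnpa2b1 and Hnrnph3 below it, and Srpk2 alone at -1.30 and -1.28.

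Whether the genotype difference itself changed with stimulation was tested as the genotype effect at 4 h minus that at 0 h. After median-centring limma called 0 of the 45 members (2.12% of genes tested), while 2 members had a higher and 7 a lower effect at 4 h at an unadjusted p under 0.05, which is 20.0% of the members beside 21.6% of genes tested. The estimates farthest from 0 were those of Hnrnpa0 (1.20, SE 0.22, adjusted p = 0.0696), Hnrnph1 (-1.05, SE 0.23, adjusted p = 0.0937), Hnrnpa1 (-0.93, SE 0.21, adjusted p = 0.0983), Clk1 (-0.88, SE 0.24, adjusted p = 0.129) and Srsf1 (0.87, SE 0.20, adjusted p = 0.104). Hnrnpa0 was called under the other 4 scalings, with estimates from 1.20 to 1.47 over the 5, and Srsf1 under 1, on the deposited values (1.13, adjusted p = 0.0467). From 0 h to 4 h Hnrnpa0 had a log2 change of 0.45 in WT and 1.66 in cKO, Srsf1 of -0.27 and 0.60, Hnrnph1 of 0.75 and -0.31, and Hnrnpa2b1 of 1.17 and 0.36. Calls at 4 h and not at 0 h, such as that of Hnrnpa1, are therefore not shown to differ between the times.

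The rest of the splicing machinery was examined in 4 further gene lists, to be read beside the 2.79% higher and 2.17% lower of genes tested at 0 h and the 7.2% and 8.71% at 4 h. Of 32 snRNP proteins, 0 were called at 0 h, and 0 were higher and 5 lower at 4 h. Luc7l3, a U1 snRNP-associated protein, had the largest change of these, with values of 1739 and 1412 in WT against 876 and 868 in cKO at 4 h (log2 fold change -0.85, SE 0.14, limma adjusted p = 0.0210). Snrpb2, a U2 snRNP protein, followed (-0.76, SE 0.12, adjusted p = 0.0219). Of 26 remodelling and catalytic step factors, 0 were called at 0 h and 0 were higher and 2 lower at 4 h, Cdc5l (-0.59, adjusted p = 0.0478) and Cwc22 (-0.49, adjusted p = 0.0415).

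Of 24 SR-related and exon junction factors, 1 was higher and 0 lower at 0 h, and 2 were higher and 2 lower at 4 h. Dyrk1a, a kinase of SR proteins, was higher at both times, at 290.1 and 320 in WT against 494 and 498 in cKO at 0 h (0.70, SE 0.13, limma adjusted p = 0.0499) and with a log2 fold change of 0.78 at 4 h (SE 0.13, adjusted p = 0.0214). Pnn, the pinin protein of the exon junction complex periphery, was lower at 4 h, at 447 and 432 in WT against 223 and 189 in cKO (-1.10, SE 0.17, adjusted p = 0.0194). Of 31 other regulators of splicing and hnRNP relatives, 1 was higher and 1 lower at 0 h, Syncrip and Fubp1, and 0 were higher and 7 lower at 4 h. Fubp1, which binds single-stranded nucleic acid, had the largest change of these at 4 h. Its scaled coverage was 1031 and 1019 in WT against 258 and 244 in cKO (-2.03, SE 0.09, adjusted p = 0.00152), after 391 and 417 in WT against 227 and 214 in cKO at 0 h (-0.87, SE 0.09, adjusted p = 0.0145). Tia1, a U-rich RNA binder at 5′ splice sites and stress granules, was 117 and 117 in WT against 61.8 and 43.8 in cKO at 4 h (-1.17, SE 0.19, adjusted p = 0.0219). Under all 5 scalings, where 3.22% of genes tested were lower and 5.77% higher at 4 h, 2 of the 5 snRNP proteins called lower at 4 h were called lower, 0 of the 2 remodelling factors, 1 of the 2 SR-related factors and 3 of the 7 other regulators. Both SR-related factors called higher at 4 h were called under all 5. Cdc5l was called under 2 scalings, Cwc22 under 1 and Tia1 under 3.

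Several values have limits that come from the annotation. The library kit does not mark strand, and Ptbp1, Hnrnpk, Hnrnpab, Hnrnph3, Sf3b3 and Srpk2 are among those that each overlap 1 other protein-coding gene. Near-identical copies (at least 95% identity over at least 300 bases) were found for 11 members, among them 27 for Hnrnpa3, 9 for Hnrnpa1, 8 for Hnrnpf, 4 for Srsf3, 2 each for Srsf10 and Hnrnpk and 1 each for Hnrnpr and Ptbp1, so that reads could be split between them. Coverage was taken as averaged over the length of a gene. A shift in 3′UTR length would then change it without a change in RNA number, and its part in these values was not tested.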

How the data were processed

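RNA-seq of 8 BMDM samples was used, 2 for each of 4 groups. The authors aligned reads to GRCm38 with HISAT2 2.2.1 and quantified genes with StringTie 2.1.7 (per the labels), and deposited a coverage signal per gene symbol and sample in 1 table per time. Their unit is not named in the files and was read from the values. Without reads per gene there is no counting interval. The tables also hold the authors' own log2 fold changes, p-values and FDR, which were not used. Every per-sample column was used (0 left out). No 2 samples held identical values (0 pairs).

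Coverage was transformed as log2(coverage + 0.1) for genes with a mean of at least 0.5, and each sample was centred on its median. Fold changes are on this scale. Limma 3.58.1 in R 4.3.3 fitted the 4 group means over all 8 samples, with Benjamini-Hochberg adjustment over 16284 genes and calls at an adjusted p under 0.05. The fit was tested on simulated data. With 2 pooled samples per group, p-values measure the spread between those pools. Alternatives were the scaling (as deposited, equal summed coverage, quantile normalization and, chosen after seeing the data, the median of genes with coverage of 500 or more on average), a pseudocount of 1, no filter, an intensity trend, the study's rule (fold above 1.5 with an unadjusted p under 0.05), fits of 1 time only, a replicate block and each sample left out. Members and lists were chosen with earlier results of these data known. Each member called between genotypes, the 5 members with the largest rises and falls called in WT after stimulation, and the 2 called genes with the largest change in each further list are named, and others are named by range or as their relatives. Hnrnpa0, Srsf1, Ptbp3, Hnrnpf and other members that were not called were singled out after their values were seen. Positions and 3′ ends came from GENCODE M21, with transcripts that carry a RefSeq match, and copies were searched with blastn 2.17.0.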

Additional observations from a re-analysis of the deposited data

How the results depend on the processing

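With 2 samples per group the spread is poorly known, and each fit with a sample left out assumes that the lone sample of its group varies like the other groups. Members called higher and lower were 1 and 5 at 0 h and 2 and 5 at 4 h under quantile normalization (0 and 2, and 2 and 11, in the reported fit). They were 0 and 1 at 0 h and 1 and 5 at 4 h with no filter, 4 and 5 at 0 h and 4 and 18 at 4 h with an intensity trend, and 0 and 4 at 0 h and 4 and 11 at 4 h when centred on high-coverage genes. As deposited they were 11 and 1 at 4 h, and 4 were lower with equal summed coverage. Fits of 1 time only gave 0 and 1 at 0 h and 0 and 0 at 4 h, and the study's rule 0 and 4 at 0 h and 1 and 7 at 4 h. For stimulation in WT they were 6 and 23 as deposited, 6 and 23 with equal summed coverage, 7 and 21 with quantile normalization and 11 and 17 when centred on high-coverage genes, with 2 lower under the trend. In cKO they were 7 and 21, 5 and 23, 11 and 21 and 10 and 17, with 1 lower by the study's rule. The difference of genotype effects gave 2 calls as deposited, 1 with equal sums, 1 with quantile normalization, 1 when centred on high-coverage genes, 7 with the trend and 7 by the study's rule. With 1 sample left out, members lower ranged from 0 to 2 at 0 h and from 0 to 13 at 4 h, members higher from 0 to 1 at 4 h and 0 to 0 at 0 h. Stimulation counts then ranged from 25 to 32 higher and 1 to 1 lower in WT and from 25 to 31 higher and 2 to 2 lower in cKO, and the difference of effects from 0 to 0. At the time of its call, each genotype difference of a called member kept its sign in these alternatives. The WT stimulation differences of Tra2a, Hnrnpa1, Srsf3, Tra2b, Hnrnph3 and Srpk2 kept theirs too. Genotype differences at a time without a call could change sign, as that of Hnrnpa2b1 at 0 h, from -0.06 to 0.07 over the 5 scalings. The WT stimulation differences of 30 members had signs that differed among the 5 scalings, such as that of Hnrnpa2b1, 1.17 after centring and -0.30 as deposited. Those of 15 members had the same sign under all 5.

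The replicate numbers recur at both times, and the sources do not say whether samples with the same number came from the same pool. Over all genes tested, the deviations of such samples correlated at 0.020 in WT and 0.024 in cKO. When only genes averaging 10 or more were kept, the correlations were 0.053 and 0.058. With 2 samples per group, low correlations cannot show whether the samples were paired. The fit with a replicate block gave 0 members higher and 2 lower at 0 h, 2 and 11 at 4 h, 29 and 1 for stimulation in WT, 29 and 2 in cKO and 0 for the difference of effects. A test of read counts was not run, since the values are not counts.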
